A study of Homo sapiens with 6 samples.

Results

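The colony-stimulating factors examined here are CSF1 (macrophage colony-stimulating factor), CSF2 (granulocyte-macrophage colony-stimulating factor), CSF3 (granulocyte colony-stimulating factor) and IL34 (interleukin 34), together with CSF1R, the receptor that CSF1 and IL34 share. Every probe on the array that names a RefSeq transcript of one of these 5 genes was taken, which gave 8 of the 50599 probes, and 5 of the 8 passed the filter on dim probes. CSF1 had 3 probes, CSF3 had 2, and CSF2, IL34 and CSF1R had 1 each. RNA came from MDA-MB-231, a human triple-negative breast cancer cell line. Cells were reverse transfected with a precursor of hsa-miR-205-5p, one of hsa-miR-214-3p (below miR-205-5p and miR-214-3p) or a scrambled control, and RNA was taken 72 h later, with 2 arrays (replicates 1 and 2) in each of the 3 groups. Nothing in the labels says that the replicates were separate cultures, so the p-values measure the spread between these arrays, which may be technical.

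Colony-stimulating factors are secreted cytokines named for the blood cell colonies they support in culture. CSF1 binds CSF1R, a receptor tyrosine kinase, and keeps monocytes and macrophages alive and dividing. IL34 is a second ligand of the same receptor. CSF2 acts through a receptor built of CSF2RA and the shared chain CSF2RB, and CSF3 acts through CSF3R and drives neutrophil production. Breast carcinoma cells are known to secrete CSF1, which attracts and sustains tumour-associated macrophages. CSF1 is made from alternatively spliced transcripts, some of which encode a form held in the cell membrane until a protease such as ADAM17 releases it, and its transcripts can end in alternative 3′ untranslated exons. The study listed CSF1 among the targets of miR-214-3p from its fall on these same arrays together with a sequence-based target prediction, so the CSF1 values here are not independent evidence of that choice.

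A mature miRNA guides silencing complexes to messenger RNAs mainly through its seed, bases 2 to 8 from the 5′ end. The mature sequences of both miRNAs are shown because the comparisons turn on them, with the seed in capitals (RefSeq, GRCh38.p14, miR-214-3p at chr1:172138816-172138837 on the minus strand and miR-205-5p at chr1:209432166-209432187 on the plus strand).
hsa-miR-214-3p: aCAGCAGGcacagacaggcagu
hsa-miR-205-5p: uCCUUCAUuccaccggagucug
The seeds differ, so the precursors do not form a family with a shared seed. Untranslated region sequences of the 5 genes were not analysed here.

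On each array 58717 spots carried probes other than controls, and 20813 to 24759 of them (35.4% to 42.2%) were well above background. No spot was saturated. Signals below are first given as the processed signal, a background-subtracted intensity on a linear scale that is not adjusted between arrays, and then as the normalized log2 signal, which is log2 of the processed signal minus the 75th percentile of its array. A probe had to clear the background on both arrays of 1 group or more to be kept, as 18464 did. A probe was called changed at a Benjamini-Hochberg adjusted p under 0.05 (limma, over all 18464 kept probes and all 6 arrays) together with a change of at least 2-fold. The scrambled control arrays were less alike than the others, with a median difference between replicates of 0.36 on the log2 scale over kept probes, against 0.19 for miR-205-5p and 0.13 for miR-214-3p. The 5 kept probes of the colony-stimulating factor genes were all higher on scrambled control replicate 1 than on replicate 2, by 0.26 to 0.49. All 6 arrays lay on 1 slide.

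The labelled cell line was checked against marker genes. VIM, CD44, AXL and EGFR, which mesenchymal breast cancer cells express, were well above background on all 6 arrays, and the receptors ESR1 and PGR, which triple-negative cells lack, were on 0 arrays. Of the 10 macrophage and blood cell markers listed, 8 had a probe. CD68, CD14 and ADGRE1 were well above background on all 6 arrays, TYROBP on 5 and PTPRC, the pan-leukocyte antigen CD45, on 2, while CD163, ITGAM and MRC1 were so on 0. The summed level of the 8, in units of each array's 75th percentile, was 10.1 to 12.1 with miR-205-5p, 13.7 to 14.5 with miR-214-3p and 10.9 to 13.5 in the scrambled control. Of the 4 that were tested, CD68 was lower with miR-205-5p (log2 fold change −1.05, limma adjusted p = 0.0448) and CD14 was higher (1.14, adjusted p = 0.0243), ADGRE1 and TYROBP were not called, and none of the 4 was called with miR-214-3p. The epithelial genes CDH1 and EPCAM, listed with ESR1 and PGR as low in this line, were nevertheless well above background on all 6 arrays. Both rose with miR-205-5p, at log2 fold changes of 1.96 and 2.40 (adjusted p = 0.00799 and 0.00879 from limma). The part of these marker genes in the results below was not tested.

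CSF1 was downregulated by miR-214-3p on all of its 3 probes, by 4.19-fold to 5.53-fold. The brightest probe, by its mean normalized log2 signal over the 6 arrays, names transcript NM_000757. On the miR-205-5p arrays the probe for NM_172212 was brighter. The NM_000757 probe gave a processed signal of 111 and 96.5 on the miR-214-3p arrays and 745 and 719.9 on the scrambled control arrays. Both miR-214-3p arrays lay far below both control arrays. On the normalized scale the probe stood at 1.30 ± 0.15 (SD, n = 2) with miR-214-3p and at 3.76 ± 0.18 (SD, n = 2) in the control, a log2 fold change of −2.47 ± 0.18 (SE, limma adjusted p = 0.0251), or 5.53-fold lower. RNA from a whole culture cannot tell fewer cells making a transcript from less transcript per cell.

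The second CSF1 probe, for NM_172212, gave a processed signal of 90.4 and 71.1 with miR-214-3p and of 476 and 390.0 in the scrambled control. Its normalized log2 signal was 0.93 ± 0.04 (SD, n = 2) against 3.00 ± 0.35 (SD, n = 2), a log2 fold change of −2.07 ± 0.21 (SE, limma adjusted p = 0.0263). The third probe, for NM_172210, was the dimmest, with 18.6 and 13.4 with miR-214-3p and 98.9 and 83.7 in the control, yet well above background on all 6 arrays. It stood at −1.42 ± 0.05 (SD, n = 2) against 0.75 ± 0.31 (SD, n = 2), a log2 fold change of −2.17 ± 0.20 (SE, limma adjusted p = 0.0257). None of the 3 probes overlapped between the groups, but the share of all kept probes that did not overlap was not counted.

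Among all kept probes, 1.68% were called lower and 0.991% higher with miR-214-3p, and by gene, each represented by its brightest kept probe, 2.03% of 11974 genes were called lower and 1.09% higher. Of the 5 kept probes of the colony-stimulating factor genes, the 3 called lower were those of CSF1. They ranked 25, 86 and 65 from the lowest of the 18464 log2 fold changes, in the order in which they are described above. Of the 483 genes with at least 3 kept probes, 3 (0.621%) had every probe called lower with miR-214-3p, namely CSF1, ENTREP3 and GPAT2. This count was made after the CSF1 values were seen.

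With miR-214-3p the log2 fold change of the brightest CSF1 probe stayed between −2.63 and −2.10 over 21 alternatives, but its adjusted p ran from 0.00560 to 0.243. The call was lost without miR-205-5p replicate 1 or replicate 2 (adjusted p = 0.0750 each from limma), miR-214-3p replicate 1 (0.179) or replicate 2 (0.243), or scrambled control replicate 1 (0.0532), and kept without scrambled control replicate 2 (0.0233). The other CSF1 probes likewise lost their calls when any array but scrambled control replicate 2 was left out. Under normexp background correction the dimmest probe, NM_172210, had a log2 fold change of −0.93 and was not called.

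**Figure D1:**
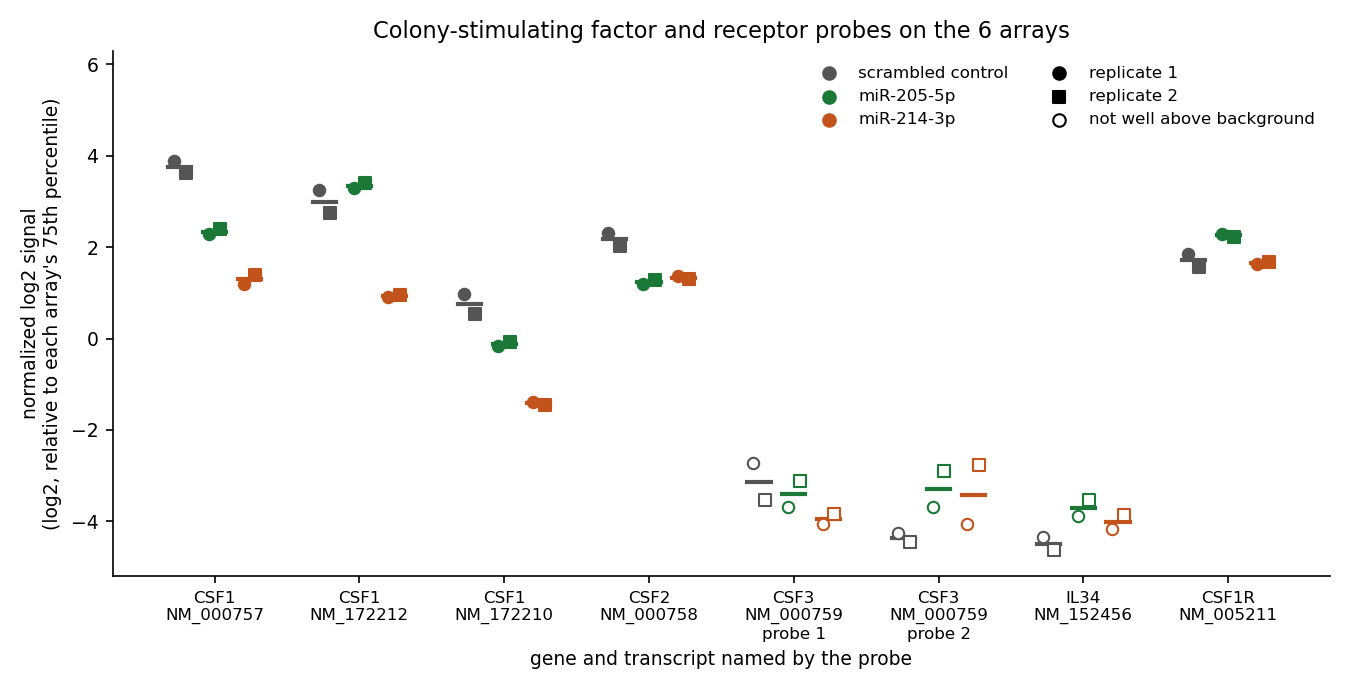
Normalized log2 signal (log2, relative to the 75th percentile of each array) of the 8 probes on the 6 arrays, by gene and transcript, with replicate 1 as circles, replicate 2 as squares, horizontal bars for group means and open symbols where the probe was not well above background. All 3 CSF1 probes are lowest with miR-214-3p, the NM_172212 probe has a mean of 3.35 with miR-205-5p and of 3.00 in the scrambled control, and the CSF3 and IL34 probes lie below all others, with open symbols throughout.

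The CSF1 probes gave different answers with miR-205-5p. The NM_000757 probe was lower, with processed signals of 203 and 186 against 745 and 719.9 in the scrambled control. Its normalized log2 signal was 2.34 ± 0.08 (SD, n = 2), a log2 fold change of −1.42 ± 0.18 (SE, limma adjusted p = 0.0108), or 2.68-fold lower. The NM_172212 probe gave no called difference. Its processed signal was 407 and 374 against 476 and 390.0, and after normalization both miR-205-5p arrays, at 3.29 and 3.41, lay above both control arrays, at 3.24 and 2.75. The log2 fold change was 0.35 (95% confidence interval −0.18 to 0.89, limma adjusted p = 0.278), and with each array scaled to its median it was −0.036. Without 1 array it ran from 0.11 to 0.60, and the highest value, without scrambled control replicate 1, had an adjusted p of 0.0360 (limma) but was under 2-fold.

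The NM_172210 probe lay between the others, with processed signals of 37.1 and 33.1 against 98.9 and 83.7. Its log2 fold change was −0.88 ± 0.20 (SE, limma adjusted p = 0.0377), or 1.84-fold lower, which is under the 2-fold limit, and both miR-205-5p arrays lay below both control arrays. Thus 1 of the 5 kept probes of these genes was called lower with miR-205-5p, where 8.05% of all kept probes were called lower and 4.14% higher (by gene, 7.98% and 4.78%). The call on the NM_000757 probe was lost without miR-205-5p replicate 1 (limma adjusted p = 0.0520) or replicate 2 (0.0602), with adjusted p from 0.00434 to 0.168 over its 21 alternatives. Averaged over its 3 probes, CSF1 had a log2 fold change of −0.65 with miR-205-5p (limma adjusted p = 0.0546). Without scrambled control replicate 2 the NM_172210 probe was called lower as well, at −1.10 (adjusted p = 0.0228).

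Whether the CSF1 probes moved apart was tested on the difference between 2 probes within each array, with limma over all 4783 pairs of kept probes that share a gene. This test was added after the probe values were seen. With miR-205-5p, the log2 fold change of the NM_000757 probe was 1.77 below that of the NM_172212 probe (a difference of −1.77, standard error 0.22, adjusted p = 0.0271), and that of the NM_172212 probe was 1.23 above that of the NM_172210 probe (adjusted p = 0.0335). The NM_000757 and NM_172210 probes differed by −0.54 (adjusted p = 0.196). Such differences were common, since 9.45% of all pairs had an adjusted p under 0.05, and 18.0% of the 483 genes with at least 3 kept probes had probes spread at least as widely as those of CSF1. The gap between the NM_000757 and NM_172212 probes, which a scaling of whole arrays cannot move, was −1.59 under normexp background correction, −1.89 without scrambled control replicate 1 and −1.65 without replicate 2.

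With miR-214-3p the same 3 differences were −0.40, −0.30 and 0.10 in their log2 fold changes, for NM_000757 minus NM_172212, NM_000757 minus NM_172210 and NM_172212 minus NM_172210. Their adjusted p were 0.565, 0.655 and 0.888 from limma. The 3 log2 fold changes of CSF1 spanned 0.40, where the median span over the 483 genes was 0.59. For miR-214-3p, 0% of the 4783 pairs passed the adjusted threshold in limma, and 485 pairs had an unadjusted p under 0.05. RefSeq lists 6 transcripts of CSF1. Each probe names 1 of them but may bind others, and the probe sequences were not used here, so these are differences between probes and not levels of single transcripts.

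Set directly against each other, the precursors differed on all 3 CSF1 probes, which were higher with miR-205-5p than with miR-214-3p. The difference was 2.42 on the log2 scale for the NM_172212 probe (standard error 0.21, limma adjusted p = 0.00397), 1.29 for the NM_172210 probe (standard error 0.20, adjusted p = 0.0100) and 1.05 for the NM_000757 probe (standard error 0.18, adjusted p = 0.0126). In this comparison 8.37% of all kept probes were called higher with miR-205-5p and 11.6% lower. The call on the NM_172212 probe was made without any 1 of the 6 arrays. That on the NM_000757 probe was lost without miR-205-5p replicate 1 or 2 (adjusted p = 0.0525 and 0.0671 from limma) or miR-214-3p replicate 1 or 2 (0.103 and 0.0811), and that on the NM_172210 probe without miR-205-5p replicate 2 (0.0547) or miR-214-3p replicate 1 or 2 (0.0717 and 0.0851). Under normexp background correction these values were 0.70 and 0.43, neither of them called.

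The order of the groups therefore depended on the CSF1 probe. On NM_000757 the scrambled control was highest, miR-205-5p intermediate and miR-214-3p lowest, with a called difference at each step. On NM_172210 the order was the same, but the step from the control to miR-205-5p was under 2-fold. On NM_172212 miR-214-3p was lowest, and the mean with miR-205-5p stood above that of the control by a difference that did not pass with all 6 arrays.

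**Figure D2:**
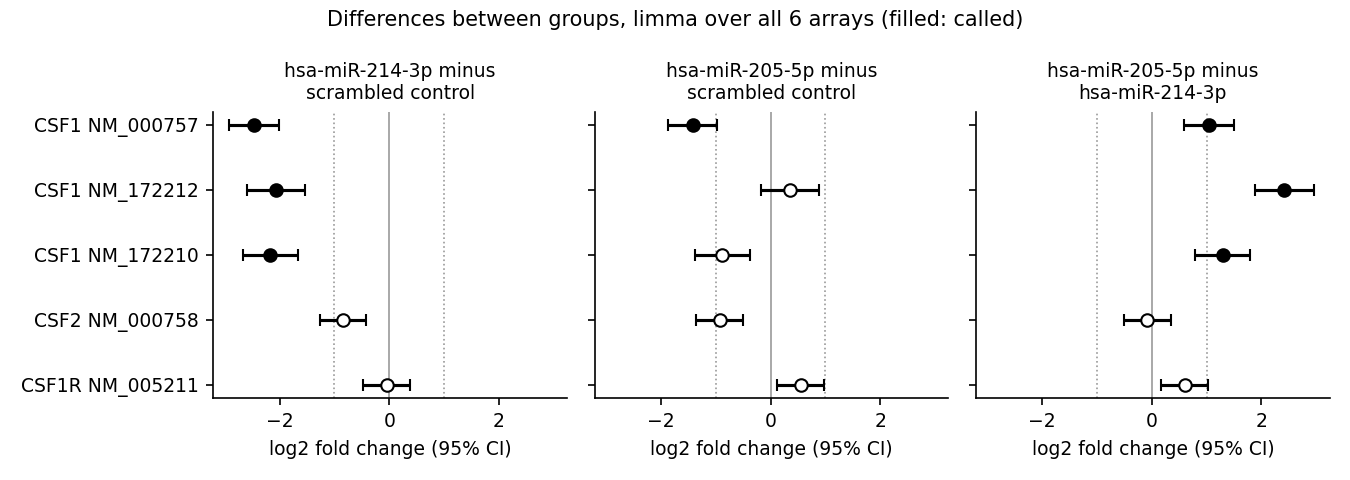
Log2 fold changes of the 5 kept probes in the 3 comparisons from limma over all 6 arrays, with 95% confidence intervals, filled symbols for called differences and dotted lines at 2-fold. CSF1 is called on all 3 probes with miR-214-3p but only on NM_000757 with miR-205-5p, where NM_172212 lies at 0.35, while the intervals of CSF1R with miR-214-3p and of CSF2 between the precursors include 0.

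CSF2 was lower with miR-205-5p by under 2-fold, and lay below the control on both miR-214-3p arrays as well, where the difference did not pass. Its processed signal was 249 and 237 in the scrambled control, 124 and 89.8 with miR-214-3p and 95.4 and 85.6 with miR-205-5p. All 4 precursor arrays lay below both control arrays. The normalized log2 signal was 2.17 ± 0.19 (SD, n = 2) in the control, 1.33 ± 0.05 (SD, n = 2) with miR-214-3p and 1.24 ± 0.06 (SD, n = 2) with miR-205-5p.

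For miR-205-5p the log2 fold change of CSF2 was −0.93 ± 0.17 (SE, limma adjusted p = 0.0225), which passed the adjusted p but at 1.91-fold not the fold limit. For miR-214-3p it was −0.84 ± 0.17 (SE, limma adjusted p = 0.0679), or 1.79-fold, and passed neither. Both comparisons share the control arrays. Between the precursors CSF2 differed by −0.088 (miR-205-5p minus miR-214-3p, 95% confidence interval −0.52 to 0.34, adjusted p = 0.712), so that in the order of levels the control mean was highest and the means of the precursors did not differ beyond their spread. With miR-205-5p, CSF2 was called lower when scrambled control replicate 2 was left out (−1.07, adjusted p = 0.0232) or each array was scaled to its median (−1.32), against an adjusted p of 0.00931 to 0.196 over 20 alternatives.

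CSF3 and IL34 were not detectable above background in any group. The 2 CSF3 probes gave processed signals of 2.54 to 7.58 and of 2.63 to 5.41, and were well above background on 0 arrays. IL34 was printed in 10 spots per array, of which 9 or 10 were used after outlier spots were left out. None of them was well above background, and the means per array ran from 2.34 to 3.02. The dimmest probe well above background gave at least 9.91 on every array, so levels under that are not resolved, and neither gene was tested.

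CSF1R, the receptor of CSF1 and IL34, was well above background on all 6 arrays. Its probe was also printed in 10 spots per array, with 9 used on miR-205-5p replicate 1. The mean processed signal was 204 and 164 with miR-205-5p, 151 and 117 with miR-214-3p and 181 and 173 in the scrambled control. Spots within an array differed by a coefficient of variation of 3.40% to 10.2%, which shows the error of a single spot on 1 array and not that between cultures.

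After normalization to the 75th percentile CSF1R was highest with miR-205-5p, at 2.29 and 2.22 on its 2 arrays, and lower at 1.64 and 1.68 with miR-214-3p and at 1.84 and 1.57 in the control. The miR-205-5p arrays lay above the other 4, and the miR-214-3p arrays lay between those of the control. The log2 fold change was 0.55 with miR-205-5p (95% confidence interval 0.13 to 0.97, limma adjusted p = 0.0770), which did not pass, and with each array scaled to its median it was 0.16 (adjusted p = 0.623). With miR-214-3p it was −0.049 (95% confidence interval −0.47 to 0.37, adjusted p = 0.890), an interval that does not reach 2-fold on either side. Without scrambled control replicate 1 this value turned to 0.086, and in the authors' table of log2 values it was 0.023. The direct difference between the precursors was 0.60 ± 0.17 (SE, limma adjusted p = 0.0462), which passed the adjusted p but at 1.51-fold was not called, and with median scaling it was 0.37 (adjusted p = 0.226). CSF1R is itself known as a marker of macrophages, and the markers of that list, given above, were partly detected. Their part in the CSF1R signal was not tested.

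**Figure D3:**
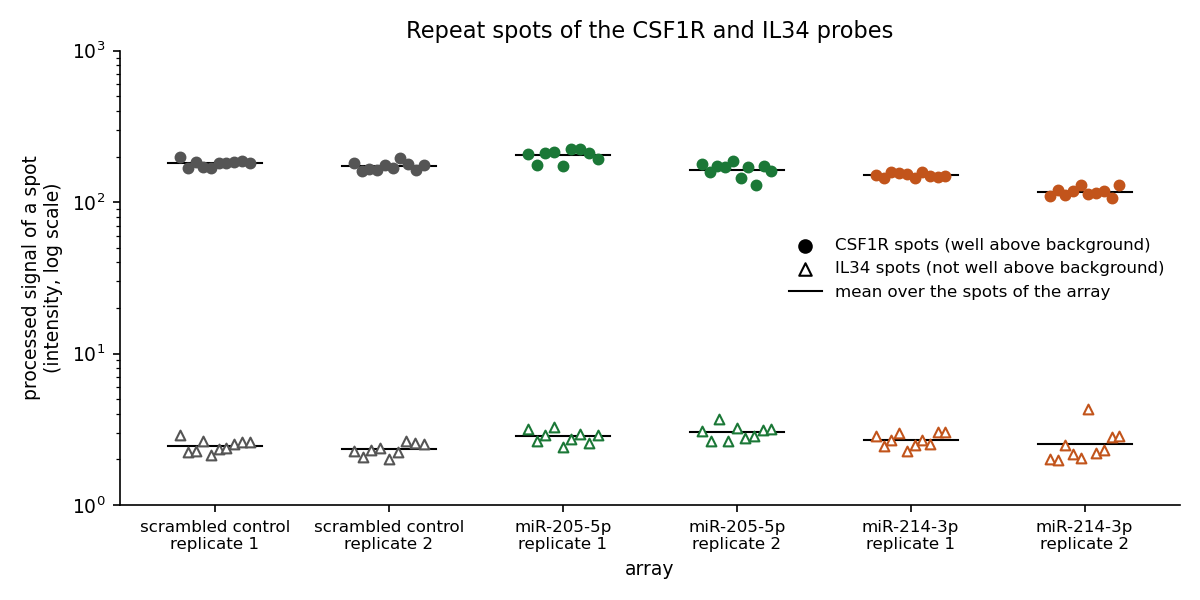
Processed signal (intensity, log scale, not adjusted between arrays) of every spot used for CSF1R and IL34 on each array, with a line at the mean of the array. The CSF1R spots of an array lie close together around means of 117 to 204, and the IL34 spots lie around 2.34 to 3.02 on every array.

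The receptors and signalling genes that serve these factors were taken from a list of 67 genes in 6 roles, of which 50 were tested, each by its brightest kept probe. With miR-214-3p, 2 of the 50 were called lower, MAPK3 and EGR1, and none was called higher (limma). At an unadjusted limma p under 0.05, 7 of the 50 were past 2-fold, where 715 of all 18464 kept probes were lower and 496 higher. The 7 include KITLG and EGR2, which were kept only through the control arrays and were not well above background with miR-214-3p. Their folds are not measured. With miR-205-5p, 2 were called lower, GRB2 among them, and 3 higher, PLCG2, SOCS1 and IL11. The median log2 fold change of the 50 was 0.12 with miR-214-3p and −0.037 with miR-205-5p, against −0.012 and 0.077 over all 11974 genes. These counts are to be read against the shares of all genes called, given above for each precursor. Between the precursors, 7 of the 50 were called lower with miR-205-5p and 6 higher, where 11.3% of all genes were called lower and 9.18% higher.

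Of the 13 receptors and co-receptors, 5 were tested and none was called against the control by limma. CSF2RA, the ligand-binding chain of the CSF2 receptor, had a normalized log2 signal of 1.63 and 1.62 with miR-214-3p, −0.48 and −0.75 with miR-205-5p and −0.05 and 0.72 in the control. The miR-214-3p arrays lay above and the miR-205-5p arrays below both control arrays. Its log2 fold changes were 1.29 (limma adjusted p = 0.0818) and −0.95 (adjusted p = 0.0737), neither of which passed, and the direct difference was −2.24 (miR-205-5p minus miR-214-3p, standard error 0.29, adjusted p = 0.00638). CSF2RB, the signalling chain, was well above background on 0 arrays and was not tested. CSF3R was well above background on both miR-205-5p arrays, 1 control array and no miR-214-3p array. Its normalized log2 signal of −0.74 and −0.09 with miR-205-5p overlapped that of the control, at −0.63 and −2.67, and it was not called in either comparison with the control (adjusted p = 0.237 with miR-205-5p and 0.745 with miR-214-3p). No fold is given, since the probe was kept through the miR-205-5p arrays.

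Among the 5 tested of 7 related ligands, IL11, a cytokine that signals through IL6ST, was higher with miR-205-5p, at 4.04 and 3.73 against 2.81 and 2.47 in the control (log2 fold change 1.24, limma adjusted p = 0.0183). With miR-214-3p it lay below both control arrays, at 2.23 and 2.07, a log2 fold change of −0.49 (adjusted p = 0.244) that was not called. KITLG, the ligand of the related receptor KIT, was well above background only on the control arrays. It was not called (adjusted p = 0.0558 with miR-214-3p and 0.107 with miR-205-5p), and no fold is given. Both shedding proteases were tested. ADAM17, which releases membrane-bound CSF1, had log2 fold changes of 1.34 with miR-214-3p (adjusted p = 0.148) and −0.32 with miR-205-5p (adjusted p = 0.607), and differed between the precursors by −1.66 (adjusted p = 0.0348).

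Of the 23 adaptors and kinases, 22 were tested. MAPK3, the kinase ERK1 at the end of the RAS pathway, stood at −1.07 and −0.91 with miR-214-3p and at 1.04 and 0.75 in the control, a log2 fold change of −1.89 ± 0.20 (SE, limma adjusted p = 0.0263). With miR-205-5p it overlapped the control, at 0.55 and 0.83. GRB2, the adaptor that links receptors to RAS, stood at 2.26 and 2.08 with miR-205-5p and at 3.64 and 3.95 in the control, a log2 fold change of −1.63 ± 0.18 (SE, limma adjusted p = 0.00912).

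GRB2 was not called with miR-214-3p (−0.11, limma adjusted p = 0.760) and overlapped the control there. PLCG2, a phospholipase that acts downstream of receptor tyrosine kinases, was higher with miR-205-5p (at −0.18 and −0.11 against −1.27 and −1.22 in the control, limma adjusted p = 0.0122). MAPK3 and GRB2 also differed between the precursors, by 1.68 and −1.52 (miR-205-5p minus miR-214-3p, limma adjusted p = 0.00534 and 0.00551).

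Of the 9 STATs and inhibitors, 5 were tested. SOCS1, a feedback inhibitor of cytokine receptors, stood at 1.24 and 1.30 with miR-205-5p and at 0.06 and −0.06 in the control, a log2 fold change of 1.27 (limma adjusted p = 0.0133), and had 0.70 with miR-214-3p (adjusted p = 0.107). Of the 13 transcription factors, 11 were tested. EGR1, an immediate early gene that ERK signalling induces, stood at 4.03 and 4.12 with miR-214-3p and at 5.41 and 5.10 in the control, a log2 fold change of −1.18 ± 0.18 (SE, limma adjusted p = 0.0405). With miR-205-5p its value was −0.073 (adjusted p = 0.785). Its relative EGR2 was not well above background with miR-214-3p and was not called against the control (adjusted p = 0.0535).

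These calls depended on single arrays and on the processing. MAPK3 and EGR1 lost their calls when any array but scrambled control replicate 2 was left out (adjusted p up to 0.243 and 0.302 from limma). Under normexp background correction MAPK3 stood at −0.81, PLCG2 at 0.41, SOCS1 at 0.69 and IL11 at 0.86 on the log2 fold change scale, all under 2-fold. With each array scaled to its median, none of the 3 genes higher with miR-205-5p was called, at 0.71 for PLCG2, 0.88 for SOCS1 and 0.85 for IL11, and PLCG2 was not called in the authors' table of log2 values either (0.97). GRB2 lost its call without miR-205-5p replicate 2 (0.0587). SOCS1 lost it without miR-205-5p replicate 1 or 2 (0.0578 and 0.0733), and PLCG2 and IL11 lost it without either replicate of either precursor, with adjusted p up to 0.0712 and 0.0801.

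**Figure D4:**
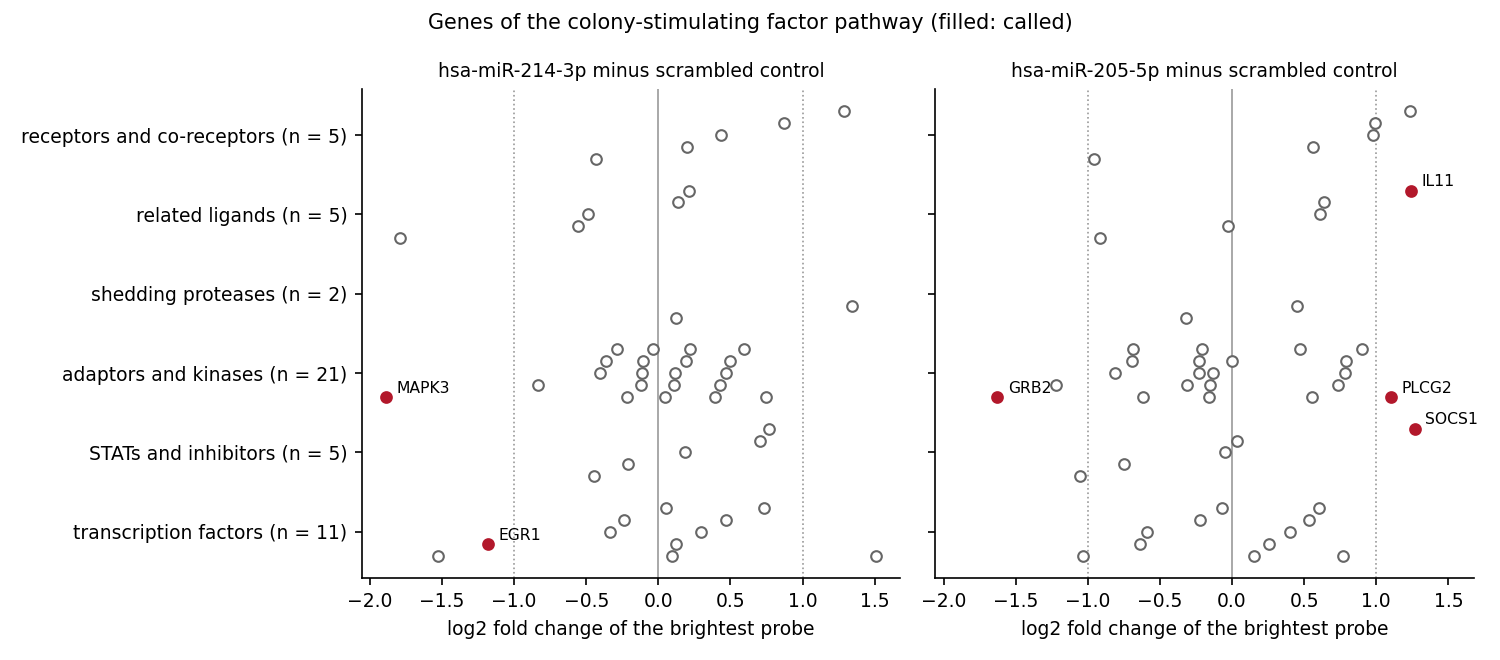
Log2 fold changes of 49 of the 50 tested genes of the list by role (1 point per gene, spread vertically within a role for legibility), for each precursor against the scrambled control, with filled points and names for called genes and dotted lines at 2-fold. MAPK3 and EGR1 are called with miR-214-3p, and GRB2, PLCG2, SOCS1 and IL11 with miR-205-5p, while most points lie within 2-fold.

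The genes whose pattern over the 6 arrays came closest to the NM_000757 probe of CSF1 were searched among 10218 genes whose brightest probe cleared the background on every array. Likeness was measured, after subtraction of the mean of each probe, as the root mean square of the log2 differences between 2 probes. The closest 5 were SCARNA11 (0.18), SCARNA13 (0.22), SCARNA20 (0.22), SCARNA16 (0.23) and SCARNA8 (0.23), all of them small Cajal body RNAs, which guide the modification of spliceosomal RNAs. Their log2 fold changes ran from −2.98 to −2.02 with miR-214-3p and from −1.95 to −0.96 with miR-205-5p. All 6 points of each gene come from the same arrays, and the likeness is a description with no test. The genes were picked for this pattern, so their similar fold changes and order of groups follow from the choice.

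**Figure D5:**
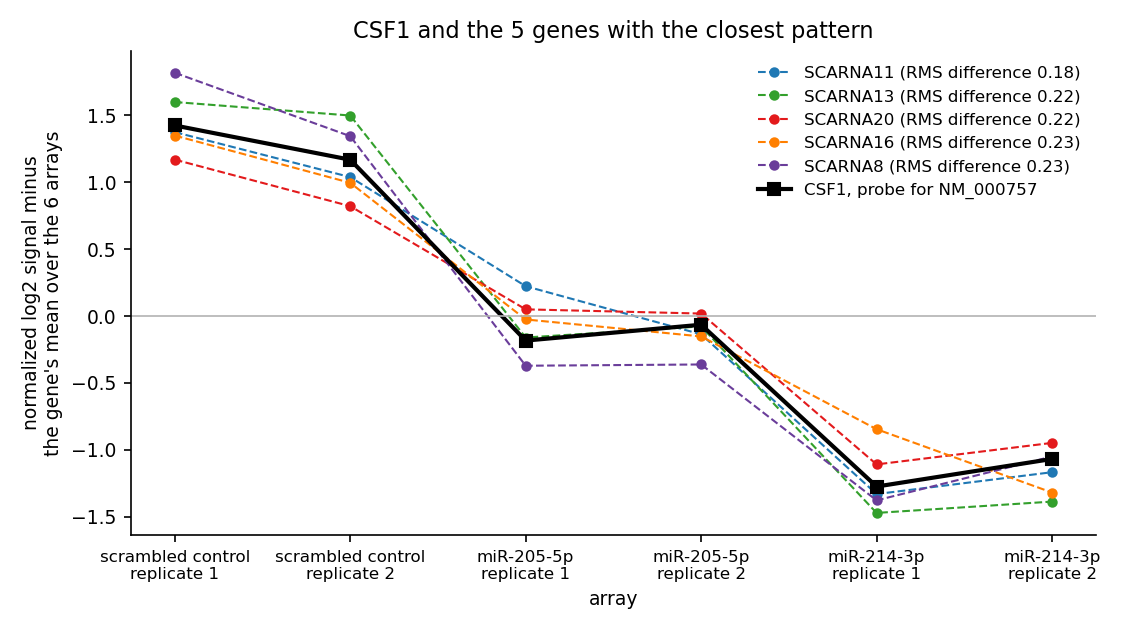
Normalized log2 signal on each of the 6 arrays, after subtraction of the mean of each gene over the arrays, for the NM_000757 probe of CSF1 (squares) and the 5 genes with the smallest root mean square difference from it (circles); lines only join the points of a gene. In all 6 genes the scrambled control arrays are highest, the miR-205-5p arrays intermediate and the miR-214-3p arrays lowest. For the 5 genes this order follows from how they were picked.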

How the data were processed

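Total RNA from MDA-MB-231 cells was labelled with Cy3 and hybridized to Agilent SurePrint G3 Human GE arrays. The authors deposited the scanner files of Agilent Feature Extraction 11.0. Their processed signal is an intensity with background and spatial trend removed, not normalized between arrays. They also deposited log2 values whose columns have the same distribution and correlate at 0.997 or more with log2 of the processed signal. That set served as an alternative only, and its normalization is not given in the sources used here. Spots of controls and outliers were dropped, those of a probe averaged, log2 taken and the 75th percentile of each array (35.1 to 58.0) subtracted. No depth applies to arrays, and their number limits the precision.

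Probes were named through the RefSeq gene table (GRCh38.p14), which named 83.3% of kept probes. It was used for names only, since the array design is on another build. limma's lmFit and eBayes (limma 3.58.1, data.table version 1.17.8, R 4.3.3) were fitted to all 6 arrays, with 3 residual and 2.47 prior degrees of freedom, and tested on simulated data. Plots used matplotlib 3.10.9. The alternatives were other background corrections, scalings, filters, tests and left-out arrays. normexp had to take the median signal in place of the planned mean signal. Fits without 1 array took the spread of the remaining array from the other groups. A slide block was not fitted, with 1 slide.

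Named were all 5 genes with every probe, and of the list of 67 genes CSF2RA, CSF2RB, CSF3R, each gene called against the control and the gene of largest change in each role, plus the 5 genes most like CSF1. The genes, lists and tests were chosen with earlier results of these data known. The result of 1 gene of the list is counted but not otherwise reported here.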

Additional observations from a re-analysis of the deposited data

Results flagged for a closer look

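The 3 CSF1 probes were singled out because the precursors differed in the direct test between them (limma, miR-205-5p minus miR-214-3p). The difference was 2.42 for the NM_172212 probe, 1.05 for the NM_000757 probe and 1.29 for the NM_172210 probe. On each probe both miR-205-5p arrays lay above both miR-214-3p arrays, which adds no support, since the same values entered that test. With 2 arrays per group, no search for single outlying arrays within a group was possible.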

How the results depend on the processing

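The log2 fold change of the brightest CSF1 probe kept its sign under all 21 alternatives in each comparison. Those that change only the filter, the model, the test or the threshold, or leave out an array of the third group, cannot move it. With miR-214-3p it was no longer called, at −2.47, without the filter on dim probes (adjusted p = 0.148 from limma), in a fit on only the 4 arrays compared (0.0750), or in the methods' t-test after Benjamini-Hochberg adjustment (0.219), and it ran from −2.59 to −2.34 without 1 array. With miR-205-5p it was not called without the filter or in that t-test (−1.42, adjusted p = 0.0577 and 0.168) or as the mean of all kept probes (−0.65), and ran from −1.55 to −1.29 without 1 array. Between the precursors it was not called under normexp (0.70), median scaling (0.82), no filter or the adjusted t-test (both 1.05), and ran from 0.94 to 1.15 without 1 array. The cause was not tested.

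The deviations of same-numbered arrays correlated at 0.109, 0.00819 and −0.0514, so no large effect shared by replicate number was seen. Such values cannot show whether same-numbered arrays were handled together, and the labels do not say. With the replicate number as a block, limma called 0 of all kept probes with miR-214-3p. These included the probes of the 5 genes (CSF1 at −2.47, adjusted p = 0.0723) and of the pathway list. The NM_000757 probe of CSF1 stayed called under the block with miR-205-5p (−1.42, adjusted p = 0.0310) and between the precursors (1.05, adjusted p = 0.0287).

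Of the probes of the 5 genes, 3 were called with miR-214-3p, and 0 without the filter, on 4 arrays or in the adjusted t-test (0 to 3 without 1 array). With miR-205-5p 1 was called, but 3 under median scaling or with no fold limit, and 0 without the filter or in the adjusted t-test (0 to 3 without 1 array). Between the precursors 3 were called, and 1 under normexp or without the filter (1 to 3 without 1 array). Of the pathway list, 2 genes were called with miR-214-3p, against 1 under normexp, 4 with the percentile over detected probes, 0 without the filter, on 4 arrays or in the adjusted t-test, 7 at unadjusted p and 4 with the mean of probes (0 to 8 without 1 array). With miR-205-5p 5 were called, against 2 under normexp, 9 under median scaling (PLCG2, SOCS1 and IL11 not among them), 1 without the filter, 2 on 4 arrays, 0 in the adjusted t-test and 11 with no fold limit (0 to 12 without 1 array). Between the precursors 13 were called, and 7 under normexp (0 to 17 without 1 array). Values that turned sign were the NM_172212 probe with miR-205-5p under median scaling (−0.036) and CSF1R with miR-214-3p in the authors' table (0.023) and without scrambled control replicate 1 (0.086, with −0.18 as the lowest without 1 array).

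Over all kept probes, limma called 311 lower and 183 higher with miR-214-3p, and 715 and 496 at unadjusted p. It called 0 without the filter, on 4 arrays, or without any 1 array other than scrambled control replicate 2 (709 and 1059), and 0 passed the adjusted t-test. Under normexp the counts were 244 and 45 and under median scaling 365 and 66. With miR-205-5p they were 1486 and 764, under normexp 842 and 149, under median scaling 2913 and 276, without the filter 305 and 173, on 4 arrays 597 and 261, and 0 without miR-205-5p replicate 2. Median scaling moved the median log2 fold change of all kept probes to −0.17 and −0.34.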
